A study of Mus musculus with 6 samples.

Results

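The MAP kinase cascade and its feedback inhibitors were described in star pyramid neurons of layer 4 of the mouse visual cortex, as 74 of the 14859 named genes measured on 6 exon arrays. The 74 genes were chosen by symbol alone: Map2k, Map3k or Map4k followed by a number, any symbol that begins with Mapk, Dusp followed by a number, Spry1 to Spry4, Spred1 to Spred3, and Errfi1. They came from 76 transcript clusters (a transcript cluster is the set of probes that the platform assigns to 1 transcribed locus) with exactly 1 gene symbol, and the cluster with the highest mean was kept for Spred2 and Mapk10, which had several. They comprise 3 MAP4K kinases, 14 MAP3K kinases, 6 MAP2K kinases, 11 MAP kinases, 12 genes for MAPK-activated kinases, scaffolds and other Mapk-prefixed products, 9 MAP kinase phosphatases, 12 other dual-specificity phosphatases, and 7 genes of the Spry, Spred and Errfi1 group. Mapk3, Map2k7 and Dusp5 were not analysed here.

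MAP kinase signalling runs as a relay of phosphorylation. MAP4K and MAP3K kinases receive the signal, a MAP3K phosphorylates a MAP2K, and the MAP2K phosphorylates a threonine and a tyrosine of the MAP kinase, which then acts on enzymes and transcription factors. The ERK arm answers growth factors and, in neurons, calcium entry at active synapses, whereas the JNK and p38 arms also answer stress, and JNK scaffolds travel with motor proteins along axons. Dual-specificity phosphatases remove both phosphates again, and Sprouty, Spred and Errfi1 proteins act further upstream, on receptors and Ras. Many of these inhibitors are transcribed in response to the pathway itself and so form a feedback loop. Transcript levels, the quantity measured here, do not report phosphorylation.

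The samples came from mice at postnatal day 14 after monocular deprivation with tetrodotoxin (TTX), a blocker of voltage-gated sodium channels, given first at postnatal day 12 to 13 and then at postnatal day 13 to 14. The deprived group holds 3 arrays of m-Citrin neurons picked by hand from the deprived hemisphere. The non-deprived group holds 3 arrays of the same kind of neuron from the non-deprived hemisphere. The deprivation label is on every sample, so the comparison is between hemispheres and includes no untreated animals. The sources used here do not give the mouse strain, the promoter that drives m-Citrin or the number of cells and animals behind an array. Sample names carry the letter l in 1 group and r in the other, so left and right, should the letters mean that, cannot be told apart from deprivation. Values are log2 expression, and array values are always given in the order of array number. P-values measure the spread between these arrays, which may be partly technical.

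Of the 6 arrays, those numbered 2 and 3 of the non-deprived group were least like the rest. The 75th percentile of named genes was 7.01, 7.15 and 7.11 in the deprived arrays and 7.08, 6.43 and 6.55 in the non-deprived arrays, and the mean correlation with the other arrays was lowest in non-deprived arrays 2 and 3 (0.863 and 0.886, against 0.906 to 0.916). Markers of excitatory neurons, with 4 of 5 measured, had a mean level of 8.98, 8.93 and 9.19 in the deprived arrays and 8.24, 7.60 and 8.32 in the non-deprived arrays. Interneuron markers, with 6 of 6 measured, had means of 6.96, 7.48 and 7.64 on deprived and 7.30, 6.12 and 6.61 on non-deprived arrays, and the interneuron gene Sst lay between 10.08 and 11.59 on the 6 arrays although the neurons are labelled as pyramidal. Astrocyte markers (6 of 6) had a mean of 5.92 in deprived array 1 and 4.84 to 5.14 on the other 5 arrays. Microglial markers (7 of 7) had means of 4.97 to 5.22 on deprived and 4.91 to 5.25 on non-deprived arrays, and endothelial markers (5 of 5) means of 4.20 to 4.32 for deprived and 4.19 to 4.23 for non-deprived arrays. The part of these marker levels in the results below was not tested. For scale, 832 olfactory, vomeronasal and taste receptor genes, which cortical neurons are not known for, had mean levels with a 95th percentile of 5.44. Of the 74 genes, 55 (74.3%) had a mean above that level, as did 54.8% of all genes tested, and the other 19 lay within the range of these receptor genes. By the same measure, 4 of 4 excitatory and 3 of 3 layer 4 markers lay above that level, as did 5 of 6 interneuron, 3 of 4 oligodendrocyte precursor, 2 of 6 astrocyte, 2 of 5 oligodendrocyte, 2 of 7 microglial and 0 of 5 endothelial markers.

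The question put to the cascade was which of its transcripts differ between neurons of the hemisphere labelled deprived and those of the other hemisphere of TTX-treated mice. None of the 74 genes passed an adjusted p of 0.05 in limma, a linear model with moderated variance fitted to all 14859 genes (percent called over all genes 0 in each direction), and the smallest adjusted p of the 74 was 0.689. At an unadjusted p under 0.05, 4 of the 74 were higher in the deprived arrays and 0 lower, where 3.81% of all genes were higher and 1.41% lower. These 4 were the kinases Map3k2 and Mapk11 and the scaffold genes Mapkbp1 and Mapk8ip2. Deprived and non-deprived values were fully separate in 5 genes (6.76%), all higher in the deprived arrays, against 6.3% of all genes higher and 4.03% lower, so that these shares were near those of all genes. A difference above 0.5 was found in 18 members (24.3%, against 19.9% of all genes), and 1 below -0.5 in 1 (1.35%, against 5.61%). In these bulk samples, fewer cells of a type and less RNA per cell cannot be told apart.

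Most members had a higher mean in the deprived arrays. The difference, deprived minus non-deprived, was above 0 in 54 of the 74 (73% against 56.3% of all genes), and its median was 0.25, against 0.05 over all genes tested. Both values depended on scaling. After quantile normalization 40 of 74 were above 0 (54.1% against 45% of all genes), with a median of 0.02 (-0.04 over all genes). After median centring 42 were above 0 (56.8% against 44.6%), with a median of 0.15 (-0.05 over all genes). Median centring moves the difference of every gene by the same amount, so the gap between members and all genes stayed the same there. Leaving out non-deprived array 2 gave a median of 0.13 and leaving out deprived array 2 gave 0.15, each against 0.05 over all genes. Leaving out non-deprived arrays 2 and 3 together leaves non-deprived array 1 alone in its group, here and below. That setting gave 0.04 (0.01 over all genes), with 45 of 74 above 0 (60.8% against 51.2% of all genes). At an unadjusted p under 0.05, quantile normalization left 2 members higher and 0 lower (2.77% and 1.86% of all genes), median centring 3 and 0 (3.14% and 2.26%), and leaving out those 2 arrays 1 and 3 (1.47% and 2.62%). The median standard error of a difference was 0.364 for the 74 genes and 0.312 for all genes. Among genes at or above the median level, where all genes were also more often above 0, members and all genes lay closer together. There 40 of 51 members were above 0, against 68.7% of all genes, with medians of 0.32 and 0.23.

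**Figure D1:**
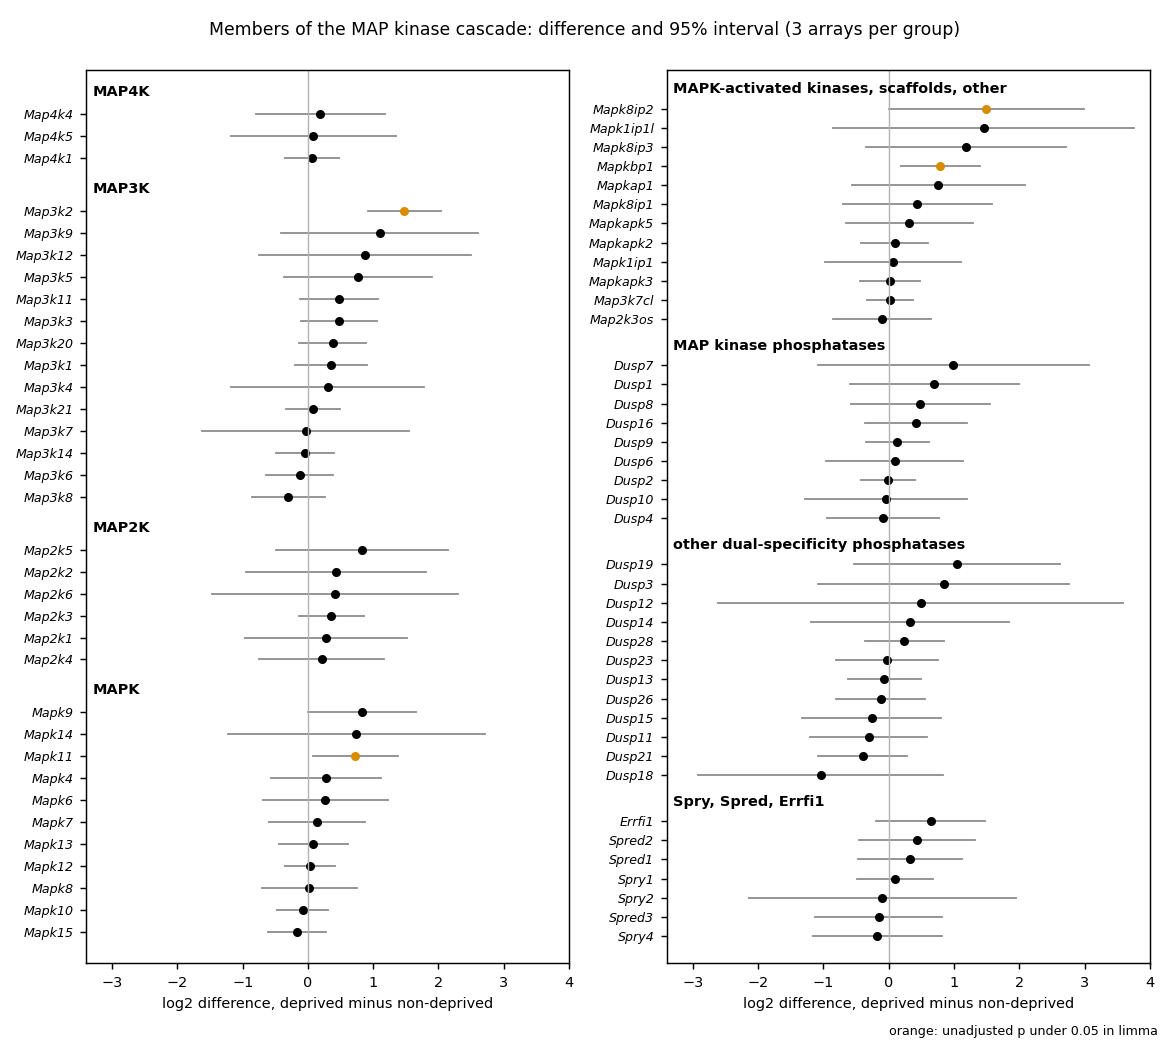
Log2 difference (deprived minus non-deprived, horizontal axis) of each of the 74 genes with its 95% interval from limma, grouped by tier of the cascade, 3 arrays per group. The intervals of Map3k2, Mapkbp1, Mapk11 and, by 0.0008, Mapk8ip2 lie above 0, and the other 70 include 0.

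The lowest value of most members fell in 1 of 2 arrays. The lowest of the 6 values fell in non-deprived array 2 for 24 members and in non-deprived array 3 for 28, together 52 of 74 (70.3%), against 46.8% of all genes tested. Deprived arrays 1, 2 and 3 held the lowest value of 6, 7 and 3 members, and non-deprived array 1 of 6. In non-deprived array 2, 15 members lay more than 1 below their own mean and 0 lay more than 1 above it. After quantile normalization, 39 members (52.7%) were lowest in non-deprived array 2 or 3, against 38.1% of all genes, and after median centring 38 (51.4%), against 34.7%, a recount chosen after the data were seen. The range over the 6 arrays was over 1 for 48 members (64.9%, against 50.7% of all genes) and over 2 for 20 (27%, against 21.1%). More members than all genes lay above the level of the receptor genes (74.3% against 54.8%), and these shares were not compared at matched levels.

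**Figure D2:**
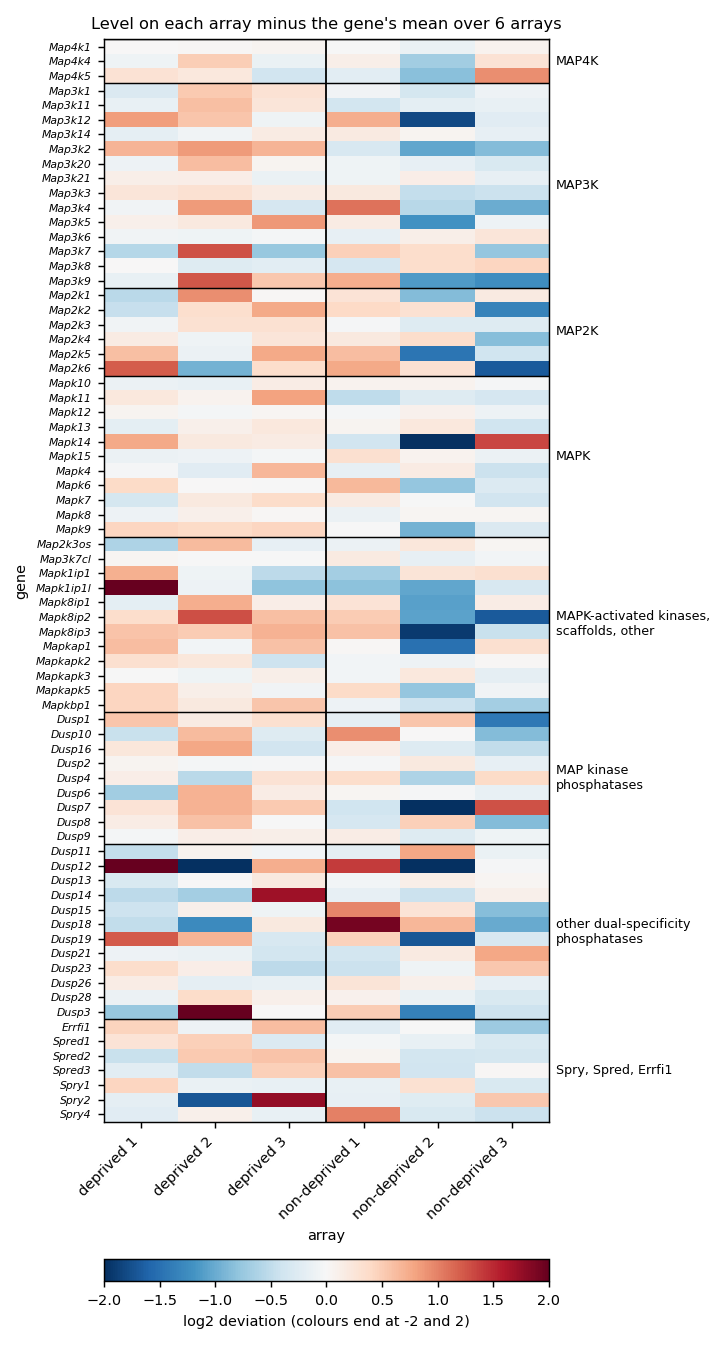
Level of each member (rows) on each array (columns, deprived arrays left of the black line) minus its own mean over the 6 arrays, in log2 units, with colours that end at -2 and 2. Non-deprived arrays 2 and 3 hold the lowest value of 52 of the 74 genes. Genes with a narrow range, such as Map4k1, Mapk8, Mapk10 and Mapk12, are pale on every array, and the mean of Mapk12 lay within the range of the receptor genes.

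At the top of the cascade, the MAP4K kinases, which relay signals to MAP3K kinases, had the smallest median difference of the 4 kinase tiers, and none passed the test. Map4k1, which encodes HPK1, was at 5.54, 5.57 and 5.59 on the deprived arrays, against 5.52, 5.41 and 5.61 on the non-deprived ones. Map4k4 was at 7.66, 8.24 and 7.62 on the deprived arrays, against 7.87, 7.05 and 8.04 on the non-deprived ones, which differ by 0.19 (95% interval -0.80 to 1.18). The median of the 3 genes was 0.08, and -0.11 after quantile normalization and -0.01 after median centring. All 3 had their lowest value in non-deprived array 2.

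The MAP3K kinases held the member with the smallest p, Map3k2, which encodes MEKK2, an activator of the ERK5 and JNK arms. Map3k2 was at 6.08, 6.24 and 6.08 on the deprived arrays, against 5.08, 4.36 and 4.54 on the non-deprived ones, so that every deprived value lay above every non-deprived one. Its means were 6.13 ± 0.10 for deprived and 4.66 ± 0.38 for non-deprived arrays (SD, n = 3 arrays each), a difference of 1.48 ± 0.23 (SE, unadjusted p = 0.000501, adjusted p = 0.689 in limma), ninth of all genes by p. Leaving out 1 array gave 1.33 to 1.69, and leaving out non-deprived arrays 2 and 3 gave 1.06. The non-deprived values, and the mean over all 6 arrays of 5.40, lay below 5.44, within the range of the receptor genes above, while the 3 deprived values lay above it.

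With Map3k2, 10 of the 14 MAP3K genes had a higher mean in the deprived arrays and the median difference was 0.37 (0.31 after quantile normalization and 0.27 after median centring), but Map3k2 alone of the 14 had an unadjusted p under 0.05. Map3k3, which encodes MEKK3, a close relative of MEKK2, was at 5.82, 5.88 and 5.73 on the deprived arrays, against 5.77, 5.09 and 5.13 on the non-deprived ones, so non-deprived array 1 lay within the deprived values. Map3k11, the mixed-lineage kinase MLK3 of the JNK arm, did not overlap between groups, at 5.49, 6.24 and 5.88 on the deprived arrays, against 5.26, 5.44 and 5.48 on the non-deprived ones, although the nearest values of the groups differed by less than 0.05. Its difference was 0.48 ± 0.25 (SE, adjusted p = 0.856 in limma). The related kinases Map3k9 (MLK1) and Map3k12 (DLK, known for axonal injury signalling) showed a different pattern. Map3k9 was at 6.04, 7.42 and 6.73 on the deprived arrays, against 6.91, 5.04 and 4.93 on the non-deprived ones, and Map3k12 at 8.19, 7.90 and 7.27 on the deprived arrays, against 8.07, 5.54 and 7.12 on the non-deprived ones. In both, non-deprived array 1 lay within the deprived values, and without non-deprived arrays 2 and 3 the differences of 1.10 and 0.87 became -0.18 and -0.28. The stress kinase Map3k5 (ASK1) was at 7.22, 7.31 and 7.99 on the deprived arrays, against 7.28, 5.92 and 7.01 on the non-deprived ones.

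Among the 4 MAP3K genes with a lower mean in the deprived arrays, Map3k8 (TPL2, an activator of the ERK arm) had a difference of -0.30 and Map3k6 (ASK2) of -0.13. Map3k8 was at 4.69, 4.43 and 4.47 on the deprived arrays, against 4.34, 5.04 and 5.11 on the non-deprived ones, and its sign turned without non-deprived arrays 2 and 3 (0.19), as did that of Map3k6 (0.11). Adjusted p-values in limma were 0.859 and 0.94. The mean of Map3k8 over the 6 arrays, 4.68, lay within the range of the receptor genes. Map3k11, Map3k9, Map3k12 and Map3k5 were named after their values were seen.

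**Figure D3:**
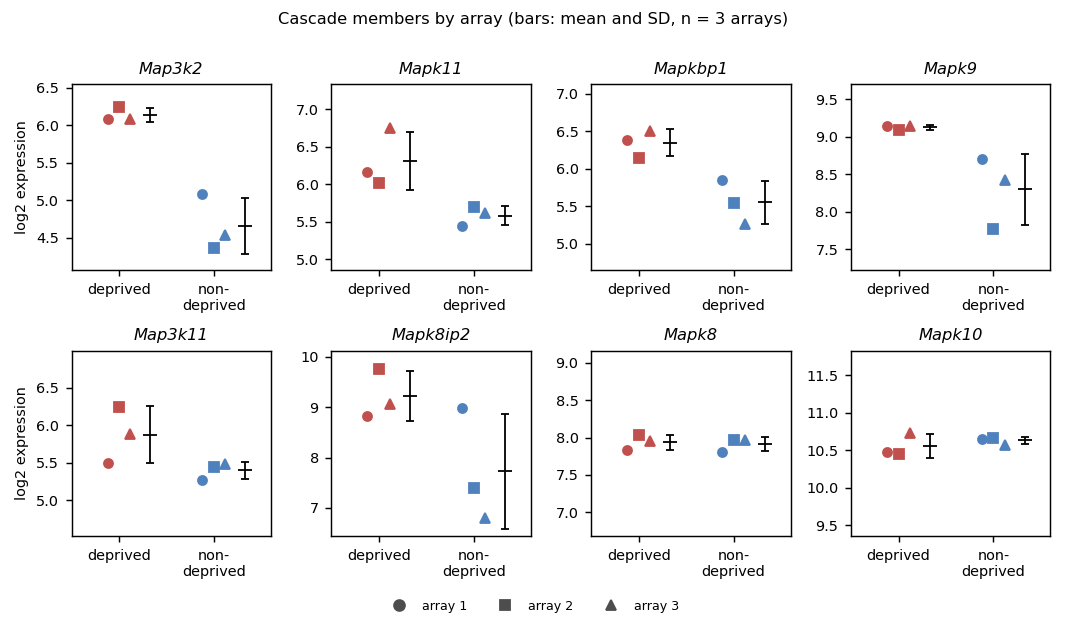
Log2 expression (vertical axes, which differ in level between panels) of 8 cascade genes on each array, deprived in red and non-deprived in blue, with symbols for array number and bars for mean and SD (n = 3 arrays). The groups do not overlap for Map3k2, Mapk11, Mapkbp1, Mapk9 and Map3k11, overlap for Mapk8ip2 through non-deprived array 1, and overlap throughout for Mapk8 and Mapk10.

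All 6 MAP2K kinases had a higher mean in the deprived arrays, with a median difference of 0.39 (0.19 after quantile normalization and 0.29 after median centring), yet none had an unadjusted p under 0.05 and all 6 had their lowest value in non-deprived array 2 or 3. Without those arrays 1 of the 6 was above 0 and the median was -0.16. Leaving out the arrays with the lowest values favours such a fall in advance, and only non-deprived array 1 then remains for comparison. Map2k1 (MEK1), a kinase of the ERK arm, was at 8.04, 9.49 and 8.59 on the deprived arrays, against 8.84, 7.71 and 8.75 on the non-deprived ones. Its partner Map2k2 (MEK2) was at 6.08, 6.87 and 7.30 on the deprived arrays, against 6.93, 6.83 and 5.19 on the non-deprived ones. The differences of 0.28 and 0.43 had 95% intervals from -0.96 to 1.51 and from -0.95 to 1.81.

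Map2k5 (MEK5), the activator of ERK5, had the largest difference of the tier, 0.82 (-0.49 to 2.14), with 6.54, 5.82 and 6.70 on the deprived arrays, against 6.56, 4.48 and 5.54 on the non-deprived ones. The p38 activators Map2k3 and Map2k6 differed by 0.36 and 0.41. Map2k3 varied over a narrow range, at 5.58, 5.95 and 5.96 on the deprived arrays, against 5.62, 5.39 and 5.39 on the non-deprived ones, while Map2k6 spread over 2.90 log2 units, at 7.05, 4.90 and 6.20 on the deprived arrays, against 6.60, 6.16 and 4.16 on the non-deprived ones. Map2k4 (MKK4), which acts on JNK and p38, was at 9.15, 8.91 and 9.24 on the deprived arrays, against 9.19, 9.35 and 8.14 on the non-deprived ones, so that non-deprived array 3 stood below the other 5.

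Among the 11 MAP kinases themselves, the range over the 6 arrays ran from 0.19 to 3.38. The difference was above 0 in 9, with a median of 0.14, and -0.0056 after quantile normalization. Genes with a narrow range included Mapk12, Mapk13 and Mapk15, whose means lay within the range of the receptor genes. The JNK genes differed in their spread. Mapk10, which encodes JNK3, the JNK enriched in neurons, was at 10.48, 10.45 and 10.73 on the deprived arrays, against 10.65, 10.67 and 10.57 on the non-deprived ones, a range of 0.29 over all 6 arrays, with a difference of -0.078 that was 0.019 for the mean over its clusters. Mapk8 (JNK1) was as even, at 7.83, 8.03 and 7.95 on the deprived arrays, against 7.81, 7.97 and 7.97 on the non-deprived ones, with a difference of 0.023 (-0.71 to 0.76). Mapk9 (JNK2), in contrast, was at 9.14, 9.09 and 9.14 on the deprived arrays, against 8.70, 7.77 and 8.42 on the non-deprived ones, so that the 3 deprived values lay close together and above all non-deprived values. The difference of Mapk9 was 0.83 ± 0.35 (SE, unadjusted p = 0.0512, adjusted p = 0.856 in limma), and 0.43 without non-deprived arrays 2 and 3. Whether Mapk9 differed from Mapk8 and Mapk10 in its response was not tested. A second cluster of Mapk10, not used for the gene, was at 7.84, 7.38 and 7.30 on deprived and 7.64, 6.09 and 8.44 on non-deprived arrays, a far wider spread.

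Of the p38 genes, Mapk11 (p38 beta) was higher in the deprived arrays without overlap, at 6.16, 6.02 and 6.75 on the deprived arrays, against 5.44, 5.69 and 5.62 on the non-deprived ones. Its means were 6.31 ± 0.39 for deprived and 5.58 ± 0.13 for non-deprived arrays (SD, n = 3 arrays each), a difference of 0.73 ± 0.27 (SE, unadjusted p = 0.0335, adjusted p = 0.856 in limma). Its lowest array was non-deprived array 1, unlike most members, and its difference without non-deprived arrays 2 and 3 was 0.87. The unadjusted p of Mapk11 was no longer under 0.05 with the replicate block, after quantile normalization (difference 0.50), after median centring (0.63), or with any single array other than deprived array 2 left out. Mapk14 (p38 alpha) spread more within the non-deprived group than between groups, at 7.71, 7.15 and 7.11 on the deprived arrays, against 6.56, 4.90 and 8.28 on the non-deprived ones, and leaving out 1 array gave differences of -0.10 to 1.59. Mapk12 and Mapk13 (p38 gamma and delta) had means of 5.35 and 5.08, within the range of the receptor genes, and differences of 0.031 and 0.082 whose signs turned after both scalings.

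Mapk7, which encodes ERK5, was at 5.88, 6.43 and 6.60 on the deprived arrays, against 6.41, 6.22 and 5.86 on the non-deprived ones, a difference of 0.14 (-0.60 to 0.88), and -0.12 after quantile normalization. The atypical kinase gene Mapk15 had the largest difference below 0 in the tier, -0.17 (-0.62 to 0.27), at a mean of 5.40.

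Scaffolds hold the kinases of an arm together, and a scaffold gene had the smallest p after Map3k2. Mapkbp1, a scaffold that binds JNK, was at 6.38, 6.15 and 6.50 on the deprived arrays, against 5.85, 5.54 and 5.27 on the non-deprived ones, with no overlap. Its means were 6.34 ± 0.18 for deprived and 5.55 ± 0.29 for non-deprived arrays (SD, n = 3 arrays each), a difference of 0.79 ± 0.25 (SE, unadjusted p = 0.0175, adjusted p = 0.856 in limma). Its unadjusted p was over 0.05 once deprived array 3, non-deprived array 3 or both of non-deprived arrays 2 and 3 were dropped. The difference was 0.65 to 0.94 when 1 array was left out and 0.50 without non-deprived arrays 2 and 3.

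The genes of 3 JNK-interacting proteins shared a low value in non-deprived array 2, below all their deprived values. Mapk8ip2 (JIP2) was at 8.82, 9.77 and 9.07 on the deprived arrays, against 8.98, 7.40 and 6.79 on the non-deprived ones. Mapk8ip3 (JIP3, which links JNK to kinesin motors) was at 8.72, 8.65 and 8.84 on the deprived arrays, against 8.72, 6.22 and 7.70 on the non-deprived ones. Mapk8ip1 (JIP1) was at 6.60, 7.51 and 6.92 on the deprived arrays, against 7.06, 5.71 and 6.94 on the non-deprived ones. In all 3 genes, non-deprived array 1 lay within the deprived values. Their differences of 1.49, 1.18 and 0.44 became 0.23, 0.0090 and -0.05 without non-deprived arrays 2 and 3. Mapk8ip2 had an unadjusted p of 0.0499 and an adjusted p of 0.856 in limma, and its unadjusted p was over 0.05 with the replicate block, after quantile normalization, and with any single array other than non-deprived array 1 left out.

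The 3 Mapkapk genes, whose kinases p38 activates, had differences of 0.02 to 0.32. Mapkap1, which despite its symbol encodes SIN1, a subunit of mTOR complex 2, was at 8.62, 7.95 and 8.59 on the deprived arrays, against 8.03, 6.52 and 8.33 on the non-deprived ones. Mapk1ip1l was at 8.81, 5.62 and 4.93 on the deprived arrays, against 4.91, 4.68 and 5.41 on the non-deprived ones. Its difference of 1.45 rested on deprived array 1 and was 0.27 without it. That array also had the highest astrocyte markers, and a link between them and Mapk1ip1l was not tested. The whole tier was above 0 in 11 of 12 genes (median 0.38, and 0.09 in 7 of 12 after quantile normalization), the exception being Map2k3os, a transcript from the opposite strand of Map2k3, at -0.10. The mean of Map2k3os, 4.48, lay within the range of the receptor genes. Mapk8ip1, Mapk8ip3, Mapkap1 and Mapk1ip1l were named after their values were seen.

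The inhibitors are the part of the pathway that activity is known to induce. The cyclic AMP response element (CRE, TGACGTCA), bound by CREB, was looked for on both strands of the 250 bases before each gene's start, after the levels had been seen, in the RefSeq promoters of build GRCm38.p6, which held 76 promoters of 59 of the 74 genes. It was found in 4 of them (6.78%), against 1.77% of the 27025 genes in the table, and 3 of the 4 were inhibitors: Dusp1, Dusp8 and Errfi1. The fourth was the kinase gene Mapk10. The share of inhibitors among the 59 was not counted, so 3 of 4 has no baseline here. A gene was counted if any of its promoters held the motif, and 14 of the 59 had several promoters. The AP-1 motif TGACTCA was in 1 of the 59 (Dusp13; 5.16% of all genes), the EGR motif GCGTGGGCG in 0 (0.622%) and the CArG box in 0 (1.62%), on both strands and with no gene of the 59 holding more than 1 of the motifs. The 4 promoters with a CRE are shown because they carry the element of activity-dependent transcription, with the CRE in capitals, for Dusp1 (chr17:26508473-26508722, minus strand), Dusp8 (chr7:142095285-142095534, minus strand), Errfi1 (chr4:150854820-150855069, plus strand) and Mapk10 (chr5:103211335-103211584, minus strand).
Dusp1: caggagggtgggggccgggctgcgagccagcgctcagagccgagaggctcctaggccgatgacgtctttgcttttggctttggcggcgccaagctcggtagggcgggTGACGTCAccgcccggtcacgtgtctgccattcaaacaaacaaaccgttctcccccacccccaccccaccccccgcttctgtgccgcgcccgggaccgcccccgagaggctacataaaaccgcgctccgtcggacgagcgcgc
Dusp8: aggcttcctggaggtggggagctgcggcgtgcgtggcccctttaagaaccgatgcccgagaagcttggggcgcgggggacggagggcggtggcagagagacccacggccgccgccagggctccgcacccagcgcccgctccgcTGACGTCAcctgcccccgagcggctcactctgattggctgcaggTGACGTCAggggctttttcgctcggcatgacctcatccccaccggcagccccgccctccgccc
Errfi1: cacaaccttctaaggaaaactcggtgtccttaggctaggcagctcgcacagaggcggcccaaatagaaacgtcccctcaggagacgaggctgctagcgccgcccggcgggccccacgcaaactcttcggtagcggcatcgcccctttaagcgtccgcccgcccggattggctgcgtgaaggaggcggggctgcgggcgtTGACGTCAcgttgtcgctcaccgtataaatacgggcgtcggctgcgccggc
Mapk10: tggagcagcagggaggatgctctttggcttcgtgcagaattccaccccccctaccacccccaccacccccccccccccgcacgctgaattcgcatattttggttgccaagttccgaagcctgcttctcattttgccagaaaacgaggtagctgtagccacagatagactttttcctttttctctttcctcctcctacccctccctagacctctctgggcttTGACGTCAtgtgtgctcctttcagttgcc
The CRE of Dusp1 begins 143 bases before the start, that of Errfi1 51 and that of Mapk10 29, and Dusp8 has 2, at 107 and 63 bases. A match describes letters in the window and not binding.

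Dusp1, an early-response phosphatase (MKP-1) of the nucleus that acts on JNK, p38 and ERK, was at 8.97, 8.58 and 8.73 on the deprived arrays, against 8.23, 8.97 and 6.99 on the non-deprived ones. Non-deprived array 2 lay within the deprived values and non-deprived array 3 stood far below all others, and the groups differed by 0.70 (95% interval -0.60 to 1.99). Dusp8, a phosphatase of JNK and p38, had the same order of arrays in the non-deprived group, at 7.43, 7.87 and 7.28 on the deprived arrays, against 6.95, 7.76 and 6.42 on the non-deprived ones, a difference of 0.48 (-0.58 to 1.55). Errfi1, an inhibitor of the EGF receptor, was at 7.14, 6.59 and 7.30 on the deprived arrays, against 6.46, 6.69 and 5.97 on the non-deprived ones, a difference of 0.64 ± 0.35 (SE, unadjusted p = 0.114, adjusted p = 0.856 in limma).

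The phosphatases selective for ERK did not follow 1 pattern. Dusp6 (MKP-3), a cytoplasmic phosphatase of ERK that ERK activity induces, was at 7.26, 8.66 and 8.11 on the deprived arrays, against 8.01, 7.94 and 7.82 on the non-deprived ones. The non-deprived values lay close together and the deprived values on both sides of them, with a difference of 0.092 (-0.96 to 1.14) that turned to -0.15 after quantile normalization. Dusp7, a relative of Dusp6, was at 7.22, 7.62 and 7.45 on the deprived arrays, against 6.54, 4.57 and 8.21 on the non-deprived ones, even in the deprived and widely spread in the non-deprived group. Its arrays ran in the same order as those of Mapk14 in the non-deprived group, lowest in array 2 and highest in array 3.

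Dusp4 (MKP-2), inducible and nuclear, was at 5.42, 4.75 and 5.58 on the deprived arrays, against 5.65, 4.67 and 5.68 on the non-deprived ones, a difference of -0.084 (-0.94 to 0.77). In both groups array 2 was the lowest, and the mean of Dusp4 over the 6 arrays, 5.29, lay within the range of the receptor genes. Dusp2 (PAC1), at 5.36, 5.27 and 5.29 on the deprived arrays, against 5.29, 5.51 and 5.16 on the non-deprived ones, and Dusp16, an inhibitor of JNK with a difference of 0.41, had means of 5.32 and 5.12, below the 5.44 of the receptor genes. Dusp10 (MKP-5), which acts on JNK and p38, differed by -0.048 (-1.29 to 1.20). Over the 9 MAP kinase phosphatases, 6 were above 0, with a median of 0.13, of -0.02 after quantile normalization and of 0.04 after median centring, and 0 had an unadjusted p under 0.05. Dusp7 and Dusp8 were named after their values were seen.

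The Sprouty, Spred and Errfi1 group, which acts on receptors and Ras, was likewise mixed, with 4 of 7 above 0 and a median of 0.10 (0.02 after quantile normalization, -0.0020 after median centring). Spry2, induced by growth factors, was at 8.10, 6.56 and 10.03 on the deprived arrays, against 8.12, 8.04 and 8.82 on the non-deprived ones. The 3 deprived values spanned 3.46 log2 units and enclosed all 3 non-deprived ones, so that leaving out 1 array gave differences of -0.99 to 0.74. Spry4 was at 5.57, 5.91 and 5.66 on the deprived arrays, against 6.80, 5.49 and 5.37 on the non-deprived ones, where non-deprived array 1 stood above all others. Spry1 had a mean of 4.97, within the range of the receptor genes, and a difference of 0.10.

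Spred1, which recruits neurofibromin to Ras, was at 8.92, 9.13 and 8.38 on the deprived arrays, against 8.62, 8.51 and 8.35 on the non-deprived ones, a difference of 0.32 (-0.47 to 1.12). Spred2 was at 8.75, 9.71 and 9.76 on the deprived arrays, against 9.24, 8.83 and 8.84 on the non-deprived ones, where deprived array 1 was the lowest array of all. A second cluster of Spred2, not used for the gene, was at 8.89, 10.30 and 10.30 on deprived and 9.34, 5.81 and 7.51 on non-deprived arrays. The same gene therefore gave a difference of 0.44 in 1 cluster and 2.28 in the other, and the second cluster was lowest in non-deprived arrays 2 and 3. Spred3 differed by -0.15 (-1.12 to 0.82).

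**Figure D4:**
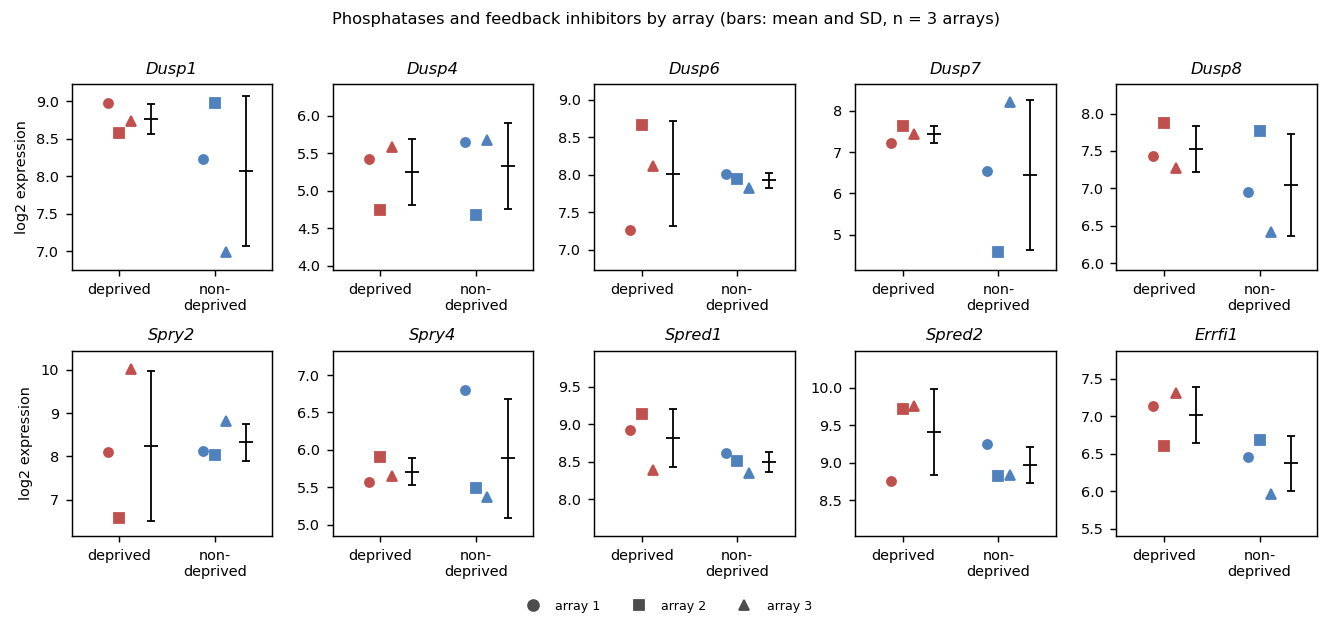
Log2 expression (vertical axes, which differ in level between panels) of 10 phosphatase and feedback inhibitor genes on each array, deprived in red and non-deprived in blue, with symbols for array number and bars for mean and SD (n = 3 arrays). The groups overlap in all 10 panels, with wide spreads for Dusp7 in the non-deprived and Spry2 in the deprived group.

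The other dual-specificity phosphatases, many of which act on substrates other than MAP kinases, were the tier with the widest array-to-array spread among the phosphatases, with a median range of 1.54 over the 6 arrays, and the tier with a median below 0 (-0.04, with 5 of 12 above 0, and 0.02 without non-deprived arrays 2 and 3). Dusp18 had the largest difference below 0 of all 74 genes, -1.05 ± 0.78 (SE, adjusted p = 0.858 in limma). Dusp18 was at 6.33, 5.54 and 7.02 on the deprived arrays, against 8.73, 7.49 and 5.81 on the non-deprived ones, so that non-deprived array 3 lay among the deprived values, and its difference was -0.35 without non-deprived array 1 and -2.43 without arrays 2 and 3 of that group. Dusp19 was at 8.01, 7.46 and 6.47 on the deprived arrays, against 7.24, 5.08 and 6.46 on the non-deprived ones, a difference of 1.05 (-0.53 to 2.63).

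Dusp3 (VHR), which can dephosphorylate ERK and JNK, was at 5.53, 8.30 and 6.30 on the deprived arrays, against 6.80, 4.93 and 5.88 on the non-deprived ones, with its highest value in deprived array 2 and its lowest in non-deprived array 2. Dusp12 had the widest range of all 74 genes, 4.41, at 8.02, 3.60 and 6.53 on the deprived arrays, against 7.20, 3.69 and 5.79 on the non-deprived ones, with array 2 near 3.6 or 3.7 in both groups. Dusp21 differed by -0.40 at a mean of 3.36, within the range of the receptor genes. Dusp12 was named after its values were seen.

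Grouped by arm instead of tier, the JNK arm (12 genes) was above 0 in 11 genes with a median of 0.46, the ERK5 arm (4 genes) in 4 with 0.65, the p38 arm (9 genes) in 9 with 0.32, and the ERK arm (6 genes) in 5 with 0.20. Over all genes tested, 56.3% were above 0. The arms differ in make-up, and no gene was counted in several. Map3k2 was counted in the ERK5 arm only, Map2k4 in the JNK arm only, and Mapkbp1 in none. The ERK arm held Map3k8, Map2k1, Map2k2 and the phosphatases Dusp6, Dusp7 and Dusp9, and no MAP kinase gene, whereas the other arms held no phosphatase. The 4 medians became 0.31, 0.53, 0.05 and 0.02 after quantile normalization, and with non-deprived arrays 2 and 3 left out they were 0.06, -0.03, 0.07 and -0.04. The level of the JNK arm, as the median over its genes, was 8.01, 7.97 and 7.61 in the deprived arrays and 7.94, 5.97 and 7.03 in the non-deprived arrays, so non-deprived array 1 lay within the deprived values. Differences between arms were not tested.

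Genes on either side of the cascade gave the setting. Inputs to Ras and Raf, with 11 of 18 listed genes measured, were above 0 in 9, with a median of 0.45 (0.24 after quantile normalization, 0.13 with non-deprived arrays 2 and 3 left out). Among them Araf, the Raf kinase measured here, differed by 0.45 with an adjusted p of 0.856 in limma. Kinase substrates and transcription factors (16 of 20 measured) were above 0 in 9, with a median of 0.05 (-0.13 after quantile normalization), and induced early genes (12 of 14) in 8, with a median of 0.20 (-0.01). In these 3 lists 0 genes passed the adjusted threshold in either direction and 0 had an unadjusted p under 0.05.

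**Figure D5:**
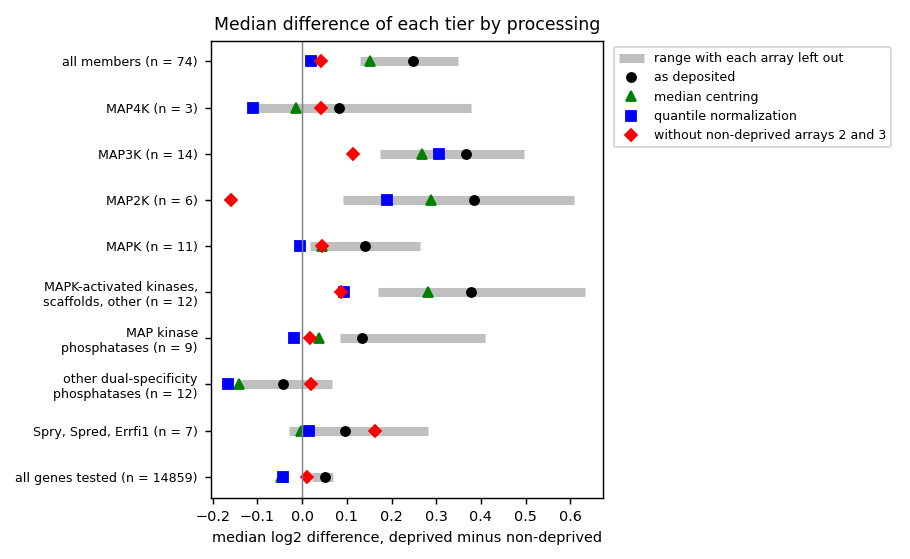
Median log2 difference (deprived minus non-deprived) of all members, of each tier and of all genes tested, as deposited (black), after median centring (green), after quantile normalization (blue) and with non-deprived arrays 2 and 3 left out (red), with grey bars for the range when each array was left out. The MAP3K median stays above 0 in all of these (0.11 to 0.50), and the MAP2K median is -0.16 without non-deprived arrays 2 and 3.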

How the data were processed

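RNA of hand-sorted neurons, 0.3 to 1 ng per sample, was amplified in 2 rounds of T7 in vitro transcription and hybridised to 6 exon arrays, per the labels' protocols. The authors deposited a table with 1 log2 value for each of 23331 transcript clusters and array; the scale was read from the values (0.584 to 13.6), while how the array signals were corrected, normalized and summarized is not given here. The submitters' processing notes list the build mm9. Medians over all clusters were 5.28, 5.29 and 5.37 in the deprived and 5.35, 5.15 and 5.16 in the non-deprived arrays, and the values were used without further scaling. Precision is limited by the 6 arrays.

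Gene symbols came from the platform annotation: 14995 clusters had 1 symbol, 1019 several and 7317 none, which left 14859 genes with the highest-mean cluster of each. The Entrez identifiers of all 74 members were found in RefSeq (GRCm38.p6), which changed 0 symbols. Groups were compared with limma 3.58.1 in R 4.3.3 (lmFit, eBayes with a variance trend, group as the sole term), two-sided, with Benjamini-Hochberg adjustment over all 14859 genes at 0.05, and 95% intervals from that fit. The fit was tested on simulated data. Tiers and lists were described by counts and medians, with no set test.

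The members and lists were chosen with earlier results of these data known. Named in full were the core kinases and inducible inhibitors of a written list and, in each tier, the 2 members with the smallest p in each direction; others are marked in the text. Alternatives were quantile normalization, median centring, expression filters, array weights, no variance trend, the mean over a gene's clusters, a block for replicate number, and leaving out arrays.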

Additional observations from a re-analysis of the deposited data

How the results depend on the processing

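No member passed the adjusted threshold under any of the 15 alternatives run (smallest adjusted p 0.182, without non-deprived array 1). Of the signs of all 74 members, 27 changed without non-deprived arrays 2 and 3, 14 after quantile normalization and 12 after median centring; the cause was not tested. At an unadjusted p under 0.05, the count higher in the deprived arrays was 2 with the replicate number as a block (539 of all 14859 genes) and 2 after quantile normalization (2.77% of all genes). When each array was left out, 1 to 8 members were higher and 0 to 2 lower, and the share of all genes is not given for those fits. Same-numbered arrays of the groups did not deviate together (correlations of -0.05, -0.02 and -0.0033), and the labels do not say whether they are the 2 hemispheres of 1 mouse, so pairing remains possible. The block changed no sign, took Mapk11 and Mapk8ip2 out of the unadjusted count, and lowered the SE of Dusp12, whose array 2 was lowest in both groups, to 0.30 with the block, against 1.30 without it. Members without overlap numbered 7 to 21 higher and 0 to 3 lower with 1 array left out. They numbered 16 and 13 without non-deprived arrays 2 and 3, where fewer arrays make separation easier. After quantile normalization 2 members were lower without overlap, and after median centring 1. The share of all genes without overlap is not given for these settings, so these counts cannot be told from the background. The median of the MAP3K genes was 0.11 without non-deprived arrays 2 and 3 and 0.17 to 0.50 with 1 array left out, and that of the MAP2K genes -0.16 without those 2 arrays. The median of the scaffold tier was 0.093 after quantile normalization, 0.78 over genes at or above the median level and 0.086 without those arrays. That of the substrates was 0.35 without them.

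Among the members named in the text, signs turned as follows. With non-deprived arrays 2 and 3 left out: Dusp12 (-1.15), Dusp2 (0.017), Dusp21 (0.16), Dusp3 (-0.094), Map2k1 (-0.13), Map2k2 (-0.19), Map2k3os (0.061), Map2k4 (-0.086), Map2k5 (-0.20), Map2k6 (-0.55), Map3k12 (-0.28), Map3k6 (0.11), Map3k8 (0.19), Map3k9 (-0.18), Map4k4 (-0.031), Mapk13 (-0.020), Mapk7 (-0.10), Mapk8ip1 (-0.046) and Spry2 (0.12). After quantile normalization: Dusp6 (-0.15), Map4k1 (-0.10), Map4k4 (-0.11), Mapk12 (-0.094), Mapk13 (-0.0056), Mapk7 (-0.12) and Mapk8 (-0.22). After median centring: Dusp6 (-0.0050), Map4k1 (-0.042), Mapk12 (-0.066), Mapk13 (-0.015), Mapk8 (-0.074) and Spry1 (-0.0020). With array weights Dusp10 (0.090) and Dusp2 (0.0087) turned, and with the mean over clusters Mapk10 (0.019). With 1 array left out, signs turned over these ranges: Dusp10 (-0.49 to 0.41), Dusp12 (-0.49 to 1.71), Dusp2 (-0.092 to 0.084), Dusp4 (-0.42 to 0.17), Dusp6 (-0.23 to 0.47), Map2k1 (-0.12 to 0.61), Map2k2 (-0.14 to 0.76), Map2k3os (-0.44 to 0.18), Map2k4 (-0.16 to 0.44), Map2k6 (-0.33 to 0.99), Map4k4 (-0.11 to 0.38), Mapk12 (-0.013 to 0.081), Mapk13 (-0.096 to 0.21), Mapk14 (-0.10 to 1.59), Mapk7 (-0.011 to 0.35), Mapk8 (-0.032 to 0.076), Spred3 (-0.43 to 0.10), Spry1 (-0.096 to 0.27), Spry2 (-0.99 to 0.74) and Spry4 (-0.44 to 0.28). The expression filters dropped 3 and 23 of the 74 genes, which have no value there.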
